A study of Mus musculus with 24 samples.

Results

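The BCL2 family of apoptosis regulators was followed as 10 genes, taken by name from the 43280 gene symbols of the deposited count table: Bcl2, Bcl2l1 and Mcl1 (survival proteins), Bax and Bak1 (pore-forming effectors), and Bid, Bik, Bbc3, Pmaip1 and Bcl2l11 (BH3-only proteins). RNA came from the small intestine of 6 male Lgr5-EGFP C57BL/6 mice, whose EGFP reporter marks cells by their Lgr5 expression. Neuregulin 1 (NRG1), which activates ErbB receptors, was injected into the peritoneal cavity of 3 mice at 7.5 µg per dose every 12 h for 5 days, and the other 3 mice were injected with the vehicle PBS on that schedule. Tissue was taken on day 6 from mice aged 15 weeks (replicates 1 and 2 of either treatment) and 11 weeks (replicate 3). From the crypts of each mouse, cells free of CD31, CD45 and propidium iodide were sorted into Lgr5high-CD24low crypt base columnar stem cells, Lgr5med-CD24low immediate progenitors, Lgr5low-CD24low subsequent progenitors and Lgr5neg-CD24neg differentiated cells. That gave 24 libraries in 8 groups of 3 mice. All groups carried the reporter, and all cells were dissociated and held with the Rock inhibitor Y-27632. Villi were scraped off before the crypts were released, and cells that took up propidium iodide, a dye that enters dead cells, were gated out. Whether villus cells or dying cells remained among those sorted was not tested.

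The BCL2 family controls whether the outer membrane of the mitochondrion stays closed. BAX and BAK1 form pores in it that release cytochrome c and start the caspase cascade, BCL2, BCL-XL (from Bcl2l1) and MCL1 hold them in check, and the BH3-only proteins report stress by binding the survival proteins or, in some cases, the effectors themselves. In the intestine the family is known for setting how readily crypt cells die after DNA damage: PUMA (from Bbc3) is a p53 target that drives this death, and MCL1 is needed to keep crypts intact in mice.

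The total of a library lay between 11176264 and 23343499 counts, of which the mitochondrial ribosomal RNAs took 37.56% to 62.43%. Levels are given as CPM, the depth-scaled count of edgeR with TMM factors over all 24 libraries, and 3 counts, the most that a count of 0 allows, are worth 0.113 to 0.2394 CPM. Those floors cover counting error only. Lgr5 itself followed the sort, with 106 to 232 CPM in the Lgr5high libraries, 16.005 to 77.3 CPM in Lgr5med, 5.89 to 21.4 CPM in Lgr5low and 1.02 to 1.55 CPM in Lgr5neg. Lgr5low NRG1 replicate 2 (21.4 CPM) exceeded Lgr5med PBS replicates 2 and 3 (16.005 and 19.4 CPM), and within a treatment no populations overlapped. The summed enterocyte markers followed the sort in reverse, with 32223 to 74292 CPM in the 6 Lgr5neg libraries and 915 to 8161 CPM in the other 18. The summed goblet markers reached 16433 to 31282 CPM in Lgr5low, against 1408 to 7939 CPM in Lgr5neg. Although CD45-positive cells were gated out, the 15 immune markers summed to 59.7 to 471 CPM in Lgr5neg libraries and to 1.59 to 6.26 CPM in all others. The highest of these sums belongs to Lgr5neg NRG1 replicate 2, which stood apart from the other 5 Lgr5neg libraries (59.7 to 205 CPM), and the results it touches are given with and without it.

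Windows of RefSeq (GRCm38.p6) that span 250 bases before and 50 after an annotated start were found for 8 of the 10 members. The windows of 4 members are shown, 5′ to 3′ on the gene's strand, because the results turn on these genes. Bcl2 runs against 5 of the other members between Lgr5high and Lgr5neg cells. Mcl1 and Bak1 are among those 5 and also move with NRG1 in Lgr5med cells, and Bcl2l11 is the member called with NRG1 in stem cells. Capitals mark the GC box GGGCGG, the CCAAT box CCAAT and the FOXO core GTAAACA, each in either orientation. FOXO proteins are transcription factors that AKT signalling keeps out of the nucleus and that are known to switch on Bcl2l11 in other mouse cells.

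Bcl2 (chr1:106714241-106714540, minus strand): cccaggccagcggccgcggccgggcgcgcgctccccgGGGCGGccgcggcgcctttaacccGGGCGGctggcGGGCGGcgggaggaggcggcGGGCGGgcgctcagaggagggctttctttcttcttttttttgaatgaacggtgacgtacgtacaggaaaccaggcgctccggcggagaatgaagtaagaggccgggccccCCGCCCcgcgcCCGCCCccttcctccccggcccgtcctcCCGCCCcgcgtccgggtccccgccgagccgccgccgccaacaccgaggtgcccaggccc

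Mcl1 (chr3:95658471-95658770, plus strand): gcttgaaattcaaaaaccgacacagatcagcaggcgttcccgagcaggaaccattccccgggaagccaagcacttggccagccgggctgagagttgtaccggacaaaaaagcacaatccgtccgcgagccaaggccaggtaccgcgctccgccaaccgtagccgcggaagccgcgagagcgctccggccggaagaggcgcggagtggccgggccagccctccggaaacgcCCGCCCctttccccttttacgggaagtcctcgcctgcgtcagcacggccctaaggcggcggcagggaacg

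Bak1 (chr17:27028578-27028877, minus strand): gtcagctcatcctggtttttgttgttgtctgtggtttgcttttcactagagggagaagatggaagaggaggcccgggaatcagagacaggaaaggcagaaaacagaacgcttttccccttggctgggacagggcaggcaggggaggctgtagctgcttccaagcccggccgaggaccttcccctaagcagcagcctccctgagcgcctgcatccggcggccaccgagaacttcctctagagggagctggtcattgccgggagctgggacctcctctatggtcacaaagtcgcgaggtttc

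Bcl2l11 (chr2:128125788-128126087, plus strand): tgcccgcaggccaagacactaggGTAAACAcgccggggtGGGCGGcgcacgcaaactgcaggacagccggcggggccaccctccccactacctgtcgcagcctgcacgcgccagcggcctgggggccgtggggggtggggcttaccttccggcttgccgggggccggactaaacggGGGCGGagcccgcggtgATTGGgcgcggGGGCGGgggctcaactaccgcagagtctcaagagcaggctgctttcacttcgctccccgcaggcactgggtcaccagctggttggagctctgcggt

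The Bcl2 window held 7 GC boxes and had a GC content of 76%, against a median of 52.7% over all 32851 windows of that length. The Mcl1 window (65.7% GC) held 1 GC box, and the Bak1 window (58.3% GC) held none of the motifs searched. The first Bcl2l11 window (71% GC) held 3 GC boxes, 1 CCAAT box and the FOXO core, which begins 227 bases before the start. Another Bcl2l11 window, not shown, held GC and CCAAT boxes but no FOXO core. Among the members not shown, a Bbc3 window also held the FOXO core. The search also covered TATAAA, the TCF core CTTTGAT, the E2F core TTCCCGC, the STAT palindrome TTCNNNGAA, the cAMP response element TGACGTCA and the E-box CACGTG, on both strands, and none of these was in the windows shown. Of all windows, 35.7% held a GC box, 37.4% a CCAAT box, 3.65% the FOXO core, 13.6% TATAAA, 3.73% the TCF core, 4.6% the E2F core, 8.3% the STAT palindrome, 1.79% the cAMP response element and 7.15% the E-box. A match describes these letters only. The data hold no measurement of binding.

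Compared per kilobase of exon, the scale on which different genes can be set side by side, Mcl1 and Bak1 were the most abundant members in all 8 groups. In Lgr5high cells Mcl1 averaged 31.5 ± 3.75 CPM per kb in NRG1 mice and 25.7 ± 2.18 CPM per kb in PBS mice (SD, n = 3 each), while Bak1 averaged 19.7 ± 2.39 CPM per kb in NRG1 mice and 19.2 ± 1.94 CPM per kb in PBS mice. In Lgr5neg cells Mcl1 averaged 71.8 ± 14.2 CPM per kb in NRG1 mice and 49.8 ± 5.30 CPM per kb in PBS mice, while Bak1 averaged 58.7 ± 9.03 CPM per kb in NRG1 mice and 70.5 ± 9.05 CPM per kb in PBS mice. MCL1 is known to bind BAK1 directly and to hold it in check. Bax came next in stem cells, at 5.21 ± 0.34 CPM per kb in NRG1 mice and 6.16 ± 1.88 CPM per kb in PBS mice, and Bbc3 was there the lowest of the 9 members that could be tested. Bcl2 held rank 4 in Lgr5high cells, at 3.04 ± 0.26 CPM per kb in NRG1 mice and 3.95 ± 0.78 CPM per kb in PBS mice, which is within the spread of Bcl2l11 in PBS mice (3.93 ± 0.71 CPM per kb). Bcl2 held rank 9 in Lgr5neg cells, at 0.85 ± 0.59 CPM per kb in NRG1 mice and 0.44 ± 0.16 CPM per kb in PBS mice, while Pmaip1 held rank 3, at 8.72 ± 4.14 CPM per kb in NRG1 mice and 6.41 ± 0.95 CPM per kb in PBS mice. Exon lengths are the union of all transcripts in the GENCODE annotation of GRCm38. With the longest transcript in place of the union, Bcl2l11 passed Bcl2 in the Lgr5high cells of NRG1 mice (3.93 against 3.87 CPM per kb) and of PBS mice (6.27 against 5.03 CPM per kb).

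**Figure D1:**
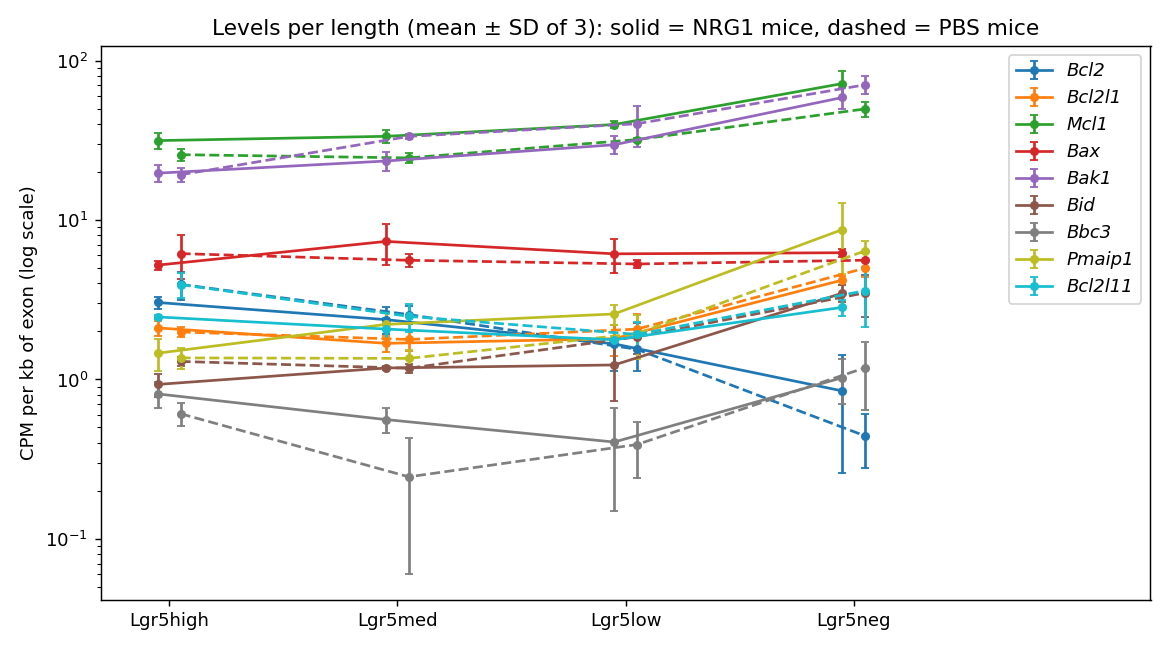
Level of 9 members per kilobase of exon (CPM per kb, log axis) in the 4 populations, as mean ± SD of 3 libraries, solid lines for NRG1 mice and dashed lines for PBS mice. Mcl1 and Bak1 lie above the other members in each population, and the Bcl2 line steps down from Lgr5high to Lgr5neg.

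Between Lgr5high and Lgr5neg cells, the ends of the sort, 6 of the 9 members tested differed in NRG1 mice and the same 6 differed in PBS mice, which are other animals. Bcl2 was higher in Lgr5high cells, and Bcl2l1, Mcl1, Bak1, Bid and Pmaip1 were lower. The background was high: 65.5% of all genes tested were called in NRG1 mice (33.5% higher and 32.0% lower in Lgr5high) and 67.4% in PBS mice (35.4% higher and 32.0% lower). A count of 6 of 9 (1 higher, 5 lower) is therefore near the background in total. The median log2 difference of the 9 members was -1.10 in NRG1 mice and -1.04 in PBS mice, against 0.08 and 0.09 over all genes.

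Between Lgr5low and Lgr5neg cells, 7 of 9 members differed in NRG1 mice, all lower in Lgr5low, and 8 of 9 in PBS mice, 7 lower and 1 higher. Of all genes tested, 57.0% were called in NRG1 mice (30.4% higher and 26.6% lower in Lgr5low) and 55.8% in PBS mice (30.6% higher and 25.3% lower). The 9 members had a median log2 difference of -1.04 in NRG1 mice and -0.99 in PBS mice, against 0.11 over all genes in either treatment. Without Lgr5neg NRG1 replicate 2 the count in NRG1 mice was 8 of 9, since Bcl2 joined it. Of the 9 members tested, 5 thus stood lower in Lgr5high cells and 7 in Lgr5low cells than in differentiated cells, in either treatment. These values depend on the TMM factors, which were 0.543 to 0.776 in Lgr5neg libraries and 1.01 to 1.29 in all others. RNA per cell was not measured.

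Along the Lgr5-positive populations few members were called in the main fit, which has no term for the mouse. Between Lgr5high and Lgr5med cells no member was called in NRG1 mice, where 3.11% of genes were called, and Bak1 was called in PBS mice, where 9.17% were. Between Lgr5med and Lgr5low cells no member was called in NRG1 mice (background 4.72%) or PBS mice (background 7.59%). At an unadjusted p under 0.05 these 3 empty comparisons held 2, 1 and 4 members, and DESeq2 called 0, 0 and 2 (Bcl2 and Mcl1). The 4 populations come from the same mice. With the mouse fitted as a replicate block, Lgr5med against Lgr5low held 1 member in NRG1 mice (Bak1, among 1266 genes called). In PBS mice that step then held 2 (Bcl2 and Mcl1), and Lgr5high against Lgr5med held 2 (Bcl2 and Bak1). A p that misses the threshold does not show that the levels were alike.

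**Figure D2:**
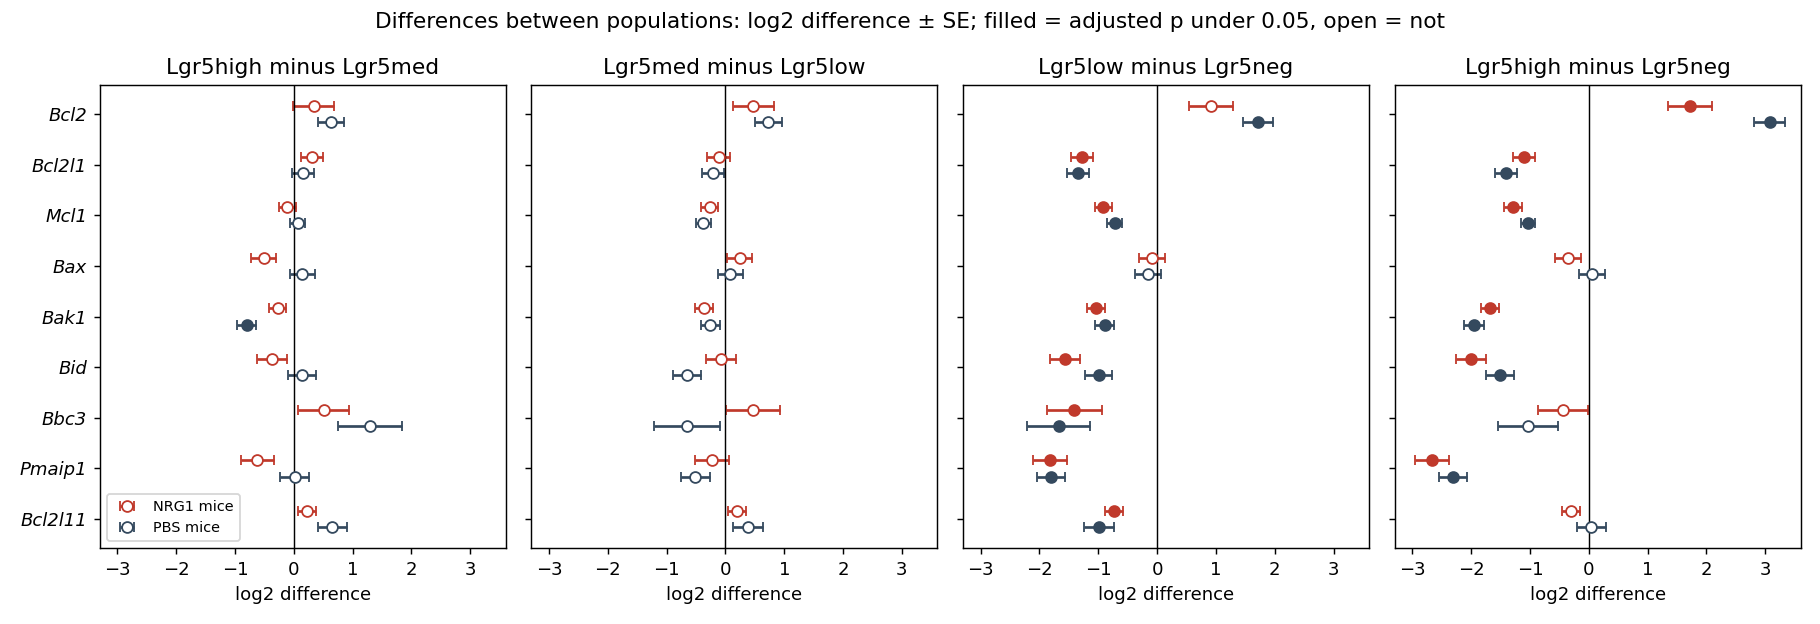
Log2 difference ± SE of 9 members between neighbouring populations and between Lgr5high and Lgr5neg, with NRG1 mice in red above PBS mice in blue, filled where the adjusted p is under 0.05. Bcl2 lies to the right of 0 in all 4 panels, and Bcl2l1, Mcl1, Bak1, Bid and Pmaip1 lie to the left wherever Lgr5neg is the second population.

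Bcl2 (ENSMUSG00000057329.7, chromosome 1, 106538178 to 106714274, minus strand) encodes the founding survival protein. In Lgr5high cells it stood at 25.6, 30.4 and 27.6 CPM in NRG1 mice 1 to 3, against 30.4, 33.8 and 44.2 CPM in PBS mice 1 to 3. In Lgr5med cells the values were 17.0, 25.1 and 23.0 CPM in NRG1 mice and 20.7, 22.8 and 26.6 CPM in PBS mice. In Lgr5low cells they were 10.1, 19.8 and 15.97 CPM in NRG1 mice and 9.74, 15.9 and 16.9 CPM in PBS mice. The level thus stepped down with Lgr5, and in PBS mice no 2 neighbouring populations overlapped. In Lgr5neg cells Bcl2 stood at 4.39, 13.95 and 4.94 CPM in NRG1 mice and at 3.94, 5.59 and 2.62 CPM in PBS mice. All of these lie below every Lgr5med library, but NRG1 replicate 2 reaches into the Lgr5low range.

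Lgr5high cells held 3.31-fold more Bcl2 RNA than Lgr5neg cells in NRG1 mice (log2 difference 1.73, SE 0.37, adjusted p = 0.00128) and 8.44-fold more in PBS mice (3.08, SE 0.26, adjusted p = 5.75e-09). Without Lgr5neg NRG1 replicate 2 the log2 difference in NRG1 mice was 2.47 (adjusted p = 5.37e-07). Between Lgr5low and Lgr5neg cells the log2 difference was 0.92 in NRG1 mice (SE 0.37, adjusted p = 0.0539) and 1.72 in PBS mice (SE 0.26, adjusted p = 1.77e-05). The first of these was 1.66 (adjusted p = 6.14e-05) without Lgr5neg NRG1 replicate 2, 1.13 (0.0263) without Lgr5low NRG1 replicate 1 and 0.97 (0.00283) when each mouse was fitted as a replicate block. It also passed without a filter on low counts (1.44e-05) and with DESeq2 (0.0253). In PBS mice the steps from Lgr5high to Lgr5med (0.63, SE 0.22, adjusted p = 0.0927) and from Lgr5med to Lgr5low (0.73, SE 0.23, adjusted p = 0.0587) did not pass, and both passed when the mouse was fitted as a replicate block (0.0351 and 0.0164).

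The library that decides these values is also the one richest in immune RNA. Its 15 immune markers summed to 471 CPM, against 145 and 59.7 CPM in the Lgr5neg libraries of NRG1 replicates 1 and 3, and 147, 205 and 95.2 CPM in those of PBS replicates 1 to 3. In each of the 6 libraries 1 of the 15 markers was at 0. Of these 6, NRG1 replicate 2 also had the lowest enterocyte sum (32223 CPM) and the highest proliferation sum (135 CPM). Its share of mitochondrial ribosomal RNA was the lowest (49.5%). The same mouse had the most Bcl2 of the NRG1 mice in Lgr5high (30.4 CPM), Lgr5med (25.1 CPM) and Lgr5low cells (19.8 CPM). Its immune markers summed there to 3.92 to 6.26 CPM. Lymphocytes are known to express Bcl2. Neither their part in its level in Lgr5neg cells nor that of the other features was tested. An antisense gene, D630008O14Rik, shares 558 bases of exon with Bcl2 but had at most 9 counts in any library, against at least 33 for Bcl2.

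**Figure D3:**
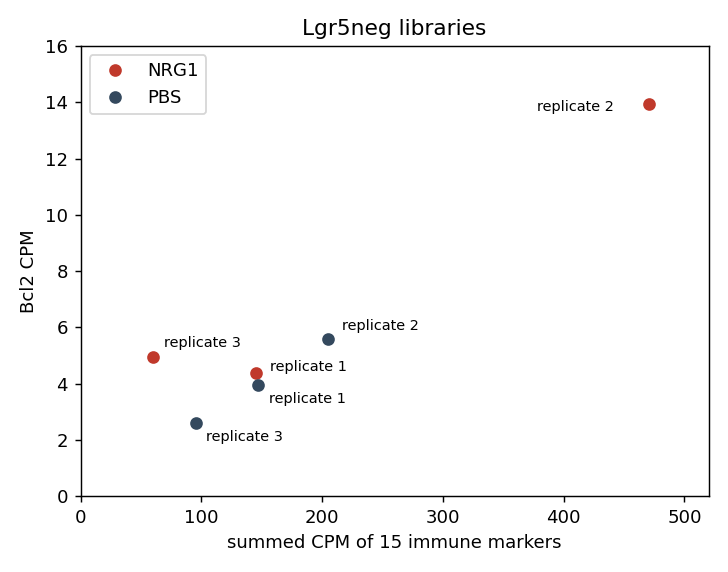
Bcl2 level (CPM) against the summed CPM of 15 immune markers in the 6 Lgr5neg libraries, NRG1 in red and PBS in blue, each point 1 library. NRG1 replicate 2 lies apart at 13.95 CPM of Bcl2 and 471 CPM of immune markers, and the other 5 lie between 2.62 and 5.59 CPM of Bcl2.

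Bcl2l1 (ENSMUSG00000007659.18, chromosome 2, 152780668 to 152831728, minus strand) encodes BCL-XL and ran the other way. It stood at 20.7, 18.6 and 18.5 CPM in the Lgr5neg libraries of NRG1 mice and at 25.9, 22.0 and 20.8 CPM in those of PBS mice. In the 18 Lgr5-positive libraries it lay between 6.78 and 12.1 CPM, below every Lgr5neg library. Lgr5high was lower than Lgr5neg by a log2 difference of -1.10 in NRG1 mice (SE 0.18, adjusted p = 5.1e-05) and -1.41 in PBS mice (SE 0.19, adjusted p = 1.95e-06). Lgr5low was lower by -1.28 in NRG1 mice (SE 0.19, adjusted p = 1.95e-05) and -1.35 in PBS mice (SE 0.19, adjusted p = 5.94e-06). Among Lgr5high, Lgr5med and Lgr5low cells no difference passed, so the order of those levels is not established.

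Mcl1 (ENSMUSG00000038612.16, chromosome 3, 95658788 to 95663176, plus strand) encodes a short-lived survival protein. In Lgr5neg cells it stood at 213, 222 and 301 CPM in NRG1 mice, against 176, 150 and 185 CPM in PBS mice. In Lgr5low cells it stood at 128, 139 and 140 CPM in NRG1 mice and at 106, 109.7 and 112 CPM in PBS mice. In Lgr5high cells it stood at 113, 117 and 93.0 CPM in NRG1 mice and at 82.3, 84.9 and 96.3 CPM in PBS mice. Lgr5neg was highest in either treatment with no overlap. Lgr5high was lower than Lgr5neg by -1.29 on the log2 scale in NRG1 mice (SE 0.15, adjusted p = 7.99e-07) and -1.03 in PBS mice (SE 0.13, adjusted p = 4.87e-07). Lgr5low was lower by -0.91 in NRG1 mice (SE 0.15, adjusted p = 5.94e-05) and by -0.72 in PBS mice (SE 0.12, adjusted p = 6.42e-05). The difference of -0.38 between Lgr5med and Lgr5low in PBS mice did not pass (adjusted p = 0.0715) and passed with the mouse as a replicate block (0.0426).

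Of the effectors, Bax (ENSMUSG00000003873.11, chromosome 7, 45461697 to 45466898, minus strand) was the flattest member. It lay between 6.44 and 15.4 CPM over the 24 libraries and was called in none of the comparisons. Its log2 difference between Lgr5high and Lgr5neg was -0.36 in NRG1 mice (SE 0.22, adjusted p = 0.159) and 0.06 in PBS mice (SE 0.22, adjusted p = 0.823). The exons of Bax share 192 bases with Gm45808 on the same strand, a gene model that the count table does not list.

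Bak1 (ENSMUSG00000057789.14, chromosome 17, 27019810 to 27029009, minus strand), the other effector, climbed along the sort. In Lgr5high cells it stood at 43.1, 45.0 and 53.9 CPM in NRG1 mice and at 51.5, 42.6 and 44.7 CPM in PBS mice. In Lgr5med cells it stood at 52.7, 51.4 and 65.3 CPM in NRG1 mice, against 82.3, 77.8 and 81.5 CPM in PBS mice. The PBS libraries of Lgr5med thus lie above all 6 Lgr5high libraries, while in NRG1 mice Lgr5high and Lgr5med overlap. In Lgr5low cells it stood at 73.5, 61.5 and 79.2 CPM in NRG1 mice and at 129, 80.0 and 81.4 CPM in PBS mice. In Lgr5neg cells it stood at 128, 130 and 166 CPM in NRG1 mice and at 192, 168 and 149 CPM in PBS mice. Lgr5neg was highest and did not overlap the other populations within a treatment.

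Lgr5high was lower in Bak1 than Lgr5neg by -1.68 on the log2 scale in NRG1 mice (SE 0.15, adjusted p = 3.77e-08) and by -1.95 in PBS mice (SE 0.17, adjusted p = 4.27e-09), a 3.21-fold and a 3.87-fold difference. Lgr5low was lower than Lgr5neg by -1.04 in NRG1 mice (SE 0.15, adjusted p = 1.67e-05) and by -0.89 in PBS mice (SE 0.16, adjusted p = 0.000122). Lgr5high was lower than Lgr5med by -0.28 in NRG1 mice (SE 0.15, adjusted p = 0.413) and by -0.80 in PBS mice (SE 0.16, adjusted p = 0.00382). That last call ended in the 15-week-old mice alone (-0.78, adjusted p = 0.11). Between Lgr5med and Lgr5low the difference was -0.36 in NRG1 mice (adjusted p = 0.1995, and 0.0409 with the mouse as a replicate block). Ggnbp1, a gene on the opposite strand that shares 177 and 437 bases of exon with Bak1, had 19 to 132 counts per library, against at least 922 for Bak1. Whether the counting used strand is not given in the sources used here.

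Of the BH3-only genes, Bid (ENSMUSG00000004446.12, chromosome 6, 120891930 to 120916853, minus strand) encodes the protein that links death receptors to the mitochondrion once caspase-8 cuts it. It stood at 10.9, 13.8 and 12.4 CPM in the Lgr5neg libraries of NRG1 mice and at 16.5, 9.62 and 11.1 CPM in those of PBS mice. The other 18 libraries lay between 2.83 and 8.22 CPM, all lower. Lgr5high was lower than Lgr5neg by -2.01 in NRG1 mice (SE 0.26, adjusted p = 2.46e-06) and -1.51 in PBS mice (SE 0.23, adjusted p = 1.15e-05), on the log2 scale. Lgr5low was lower by -1.56 in NRG1 mice (SE 0.26, adjusted p = 6.34e-05) and by -0.99 in PBS mice (SE 0.23, adjusted p = 0.00106). Bcl2l13, on the opposite strand, shares 628 bases of exon with Bid and had 316 to 723 counts, more than the 39 to 226 of Bid, so without a stated strand setting the level of Bid is uncertain.

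Pmaip1 (ENSMUSG00000024521.8, chromosome 18, 66458533 to 66465565, plus strand) encodes NOXA, which binds MCL1. In Lgr5neg cells it stood at 36.9, 17.0 and 17.6 CPM in NRG1 mice and at 20.2, 15.1 and 17.3 CPM in PBS mice. In Lgr5high cells it stood at 3.31, 5.03 and 3.64 CPM in NRG1 mice and at 3.43, 4.39 and 3.38 CPM in PBS mice, far below. Lgr5high was 6.37-fold lower than Lgr5neg in NRG1 mice (log2 difference -2.67, SE 0.29, adjusted p = 4.48e-07) and 4.94-fold lower in PBS mice (-2.31, SE 0.24, adjusted p = 6.53e-08). Lgr5low was lower than Lgr5neg by -1.82 in NRG1 mice (SE 0.28, adjusted p = 4.09e-05) and -1.81 in PBS mice (SE 0.24, adjusted p = 2.34e-06).

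Bcl2l11 (ENSMUSG00000027381.16, chromosome 2, 128126038 to 128162547, plus strand) encodes BIM, which can bind all survival proteins of the family. Its mean level was lowest in Lgr5low cells, with 14.4, 14.1 and 14.3 CPM in NRG1 mice and 11.9, 16.9 and 17.4 CPM in PBS mice. In Lgr5neg cells it stood at 20.3, 22.4 and 25.6 CPM in NRG1 mice and at 25.1, 19.5 and 42.3 CPM in PBS mice, with no overlap with Lgr5low. Lgr5low was lower than Lgr5neg by -0.73 in NRG1 mice (SE 0.16, adjusted p = 0.000698) and by -0.99 in PBS mice (SE 0.25, adjusted p = 0.0033). Between Lgr5high and Lgr5neg the log2 difference was -0.30 in NRG1 mice (SE 0.15, adjusted p = 0.09) and 0.05 in PBS mice (SE 0.25, adjusted p = 0.882), and neither passed.

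Bbc3 (ENSMUSG00000002083.13, chromosome 7, 16308393 to 16318205, plus strand), the PUMA gene, was scarce, with 4 to 48 counts per library, so its folds are imprecise. In Lgr5neg cells it stood at 2.95, 1.67 and 1.92 CPM in NRG1 mice and at 2.55, 3.65 and 1.35 CPM in PBS mice. In Lgr5low cells it stood at 1.44, 0.78 and 0.36 CPM in NRG1 mice and at 0.55, 1.17 and 0.76 CPM in PBS mice, below the Lgr5neg libraries of the same treatment. Lgr5low was lower than Lgr5neg by -1.41 in NRG1 mice (SE 0.46, adjusted p = 0.0154) and by -1.68 in PBS mice (SE 0.53, adjusted p = 0.0117). The call in NRG1 mice ended without Lgr5low replicate 2 (0.057), Lgr5low replicate 3 (0.0648) or Lgr5neg replicate 1 (0.0694) and in the 15-week-old mice alone (0.0853), and the call in PBS mice ended without Lgr5neg replicate 2 (0.0715). Other Bbc3 differences did not pass with all libraries. Without Lgr5med replicate 1, Lgr5high PBS exceeded Lgr5med PBS by 2.06 (0.0395), and without Lgr5neg replicate 3, Lgr5high PBS was lower than Lgr5neg PBS by -1.30 (0.0391). Bik (ENSMUSG00000016758.4, chromosome 15, 83526862 to 83544634, plus strand) was at or near the floor, with 0 to 18 counts and 0 to 0.76 CPM per library and 9 libraries at 0. It passed the filter on low counts in no comparison and is not among the 9 members tested. Without that filter Bik was called in PBS mice as higher in Lgr5low than in Lgr5neg (adjusted p = 0.0179) and in Lgr5high than in Lgr5neg cells (0.0270). DESeq2 called neither (0.08297 and 0.101). The counts behind these were 18, 0 and 1 in Lgr5low, 3, 9 and 3 in Lgr5high and 0 in each Lgr5neg library, too few to give a fold for.

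**Figure D4:**
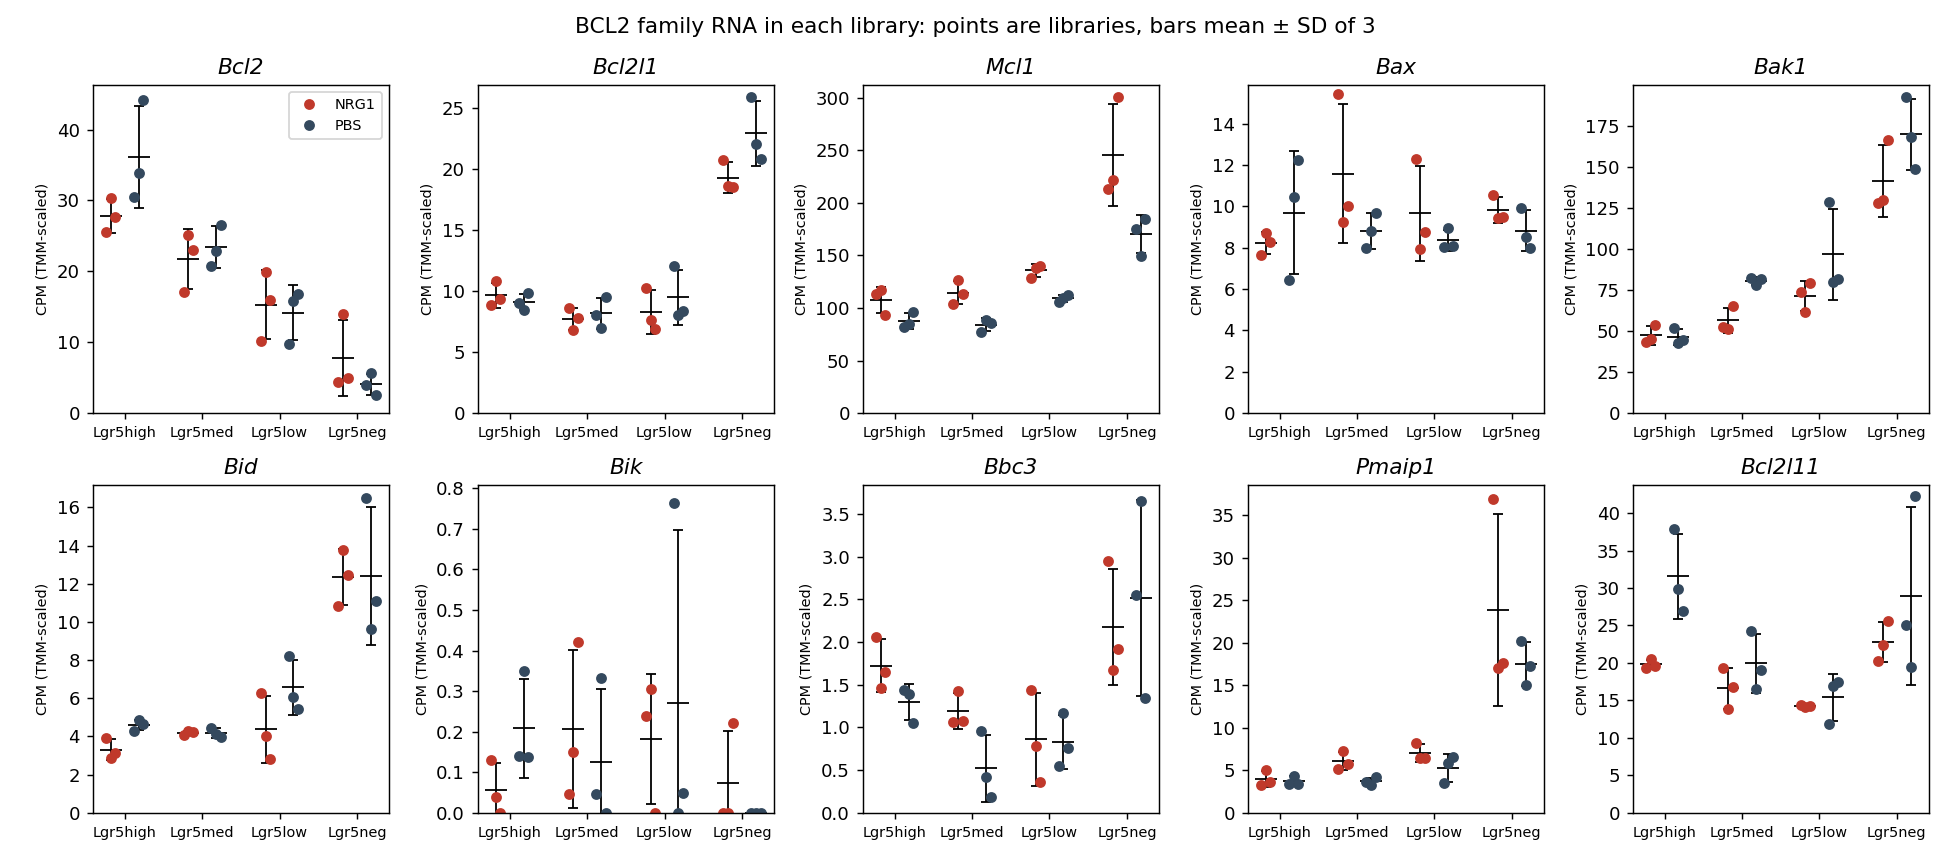
Level of each of the 10 members (CPM, linear axes from 0) in the 24 libraries by population, NRG1 in red left of PBS in blue, with points for single libraries and bars for the mean ± SD of 3. Bcl2 falls from Lgr5high to Lgr5neg while Bcl2l1, Mcl1, Bak1, Bid and Pmaip1 are highest in Lgr5neg, and in Lgr5high the 3 NRG1 libraries of Bcl2l11 (19.3 to 20.5 CPM) lie below the 3 PBS libraries (27.0 to 37.9 CPM).

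The treatment itself moved few members. With NRG1, 1 of 9 members changed in Lgr5high cells (Bcl2l11, down), 2 of 9 in Lgr5med cells (Mcl1 up, Bak1 down), and none in Lgr5low or Lgr5neg cells. Of all genes tested, 7.33% were called in Lgr5high, 9.55% in Lgr5med, 0.443% in Lgr5low and 0.328% in Lgr5neg cells. The shares of members called in Lgr5high and Lgr5med, 1 and 2 of 9, are not read as more than this background. The median log2 change of the 9 members was 0.05 in Lgr5high, 0.03 in Lgr5med, 0.07 in Lgr5low and 0.00 in Lgr5neg cells, against 0.01, 0.01, 0.00 and 0.01 over all genes. At an unadjusted p under 0.05 there were 1 member in Lgr5low and 1 in Lgr5neg cells (Mcl1 in both), and DESeq2 called none there. With the replicate number as a block, which pairs the mice in these 2 populations by the correlation given with the processing, edgeR called 573 genes in Lgr5low and 839 in Lgr5neg cells, against 59 and 39 without it. The blocked call among the members was Mcl1 in Lgr5neg cells.

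In Lgr5high cells Bcl2l11 stood at 19.3, 20.5 and 19.6 CPM in NRG1 mice, against 37.9, 29.8 and 27.0 CPM in PBS mice. All NRG1 libraries were lower than all PBS libraries, and the NRG1 values lay close together (mean 19.8 ± 0.60 CPM, against 31.6 ± 5.68 CPM in PBS mice, SD, n = 3 each). Bcl2l11 fell 1.57-fold (log2 change -0.65, SE 0.14, adjusted p = 0.0108). The call held without each of the 6 libraries in turn and ended when all 24 libraries were fitted in 1 model (log2 change -0.66, adjusted p = 0.0801). Its log2 change was -0.25 in Lgr5med (SE 0.18, adjusted p = 0.421), -0.08 in Lgr5low (SE 0.18, adjusted p = 0.9) and -0.35 in Lgr5neg cells (SE 0.25, adjusted p = 0.679), none of which passed. The change in Lgr5high minus that in Lgr5med, Lgr5low and Lgr5neg was -0.40, -0.58 and -0.31 on the log2 scale, and none passed the test of the difference itself (adjusted p of 0.842 or above).

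The other members in Lgr5high cells did not pass. Bcl2 had a log2 change of -0.35 (SE 0.15, adjusted p = 0.158). Its groups came close to overlapping, with 30.35 CPM in the highest NRG1 library and 30.42 CPM in the lowest PBS library. Bid had a log2 change of -0.46 (SE 0.23, adjusted p = 0.254), without overlap of the groups. The share of all genes without overlap was not counted, so overlap here and elsewhere only describes the values. Mcl1 had a log2 change of 0.32 (SE 0.12, adjusted p = 0.129), with 0.47 (adjusted p = 0.0415) in the 15-week-old mice alone. The remaining 5 lay between -0.22 (Bax) and 0.43 (Bbc3). Beside these values, all 10 proliferation markers rose in Lgr5high cells with NRG1, with a summed level of 2531 to 3306 CPM in NRG1 mice and 1781 to 1962 CPM in PBS mice. The 8 Paneth markers, of which 7 were tested and 2 fell, summed to 1166 to 1891 CPM in NRG1 mice and 1847 to 3261 CPM in PBS mice. Their part in the result for Bcl2l11 was not tested. In sorted bulk samples, a smaller share of cells that express a gene and less of its RNA per cell cannot be told apart.

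In Lgr5med cells Mcl1 stood at 104, 126 and 113 CPM in NRG1 mice, against 76.9, 88.6 and 86.1 CPM in PBS mice, without overlap. Mcl1 rose 1.39-fold (log2 change 0.47, SE 0.12, adjusted p = 0.0234). Bak1, whose values are given above, fell 1.41-fold (log2 change -0.49, SE 0.12, adjusted p = 0.0227), again without overlap. The 2 members thus moved in opposite directions in the immediate progenitors. Both calls are near the threshold. That of Mcl1 ended without NRG1 replicate 2 (0.111) or without PBS replicate 1 (0.0726), 2 (0.0742) or 3 (0.0961), and in the 15-week-old mice alone (0.0887). That of Bak1 ended without NRG1 replicate 1 (0.0595) or 2 (0.108) or without PBS replicate 1 (0.0554), 2 (0.0712) or 3 (0.0944), and with all 24 libraries in 1 model (0.0569).

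Pmaip1 in Lgr5med cells stood at 5.21, 7.24 and 5.72 CPM in NRG1 mice, against 3.596, 3.32 and 4.20 CPM in PBS mice, with no overlap, and did not pass (log2 change 0.73, SE 0.23, adjusted p = 0.0594). DESeq2 called it (0.0431). Bbc3 had a log2 change of 1.20 with a wide error (SE 0.54, adjusted p = 0.179), and Bax one of 0.41 (SE 0.21, adjusted p = 0.23). The summed enterocyte markers in Lgr5med cells were 1265 to 1865 CPM in NRG1 mice and 2182 to 2647 CPM in PBS mice, with 4 of 11 fallen, and 5 of 10 proliferation markers rose (1809 to 2142 CPM summed in NRG1 mice and 1548 to 1564 CPM in PBS mice). The 12 stem cell markers summed to 2702 to 3315 CPM in NRG1 mice and 1671 to 2817 CPM in PBS mice, with 1 risen, and Lgr5 itself stood at 77.3, 42.4 and 45.2 CPM in NRG1 mice, against 51.9, 16.005 and 19.4 CPM in PBS mice. The part of these markers in the changes of Bak1 and Mcl1 was not tested.

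**Figure D5:**
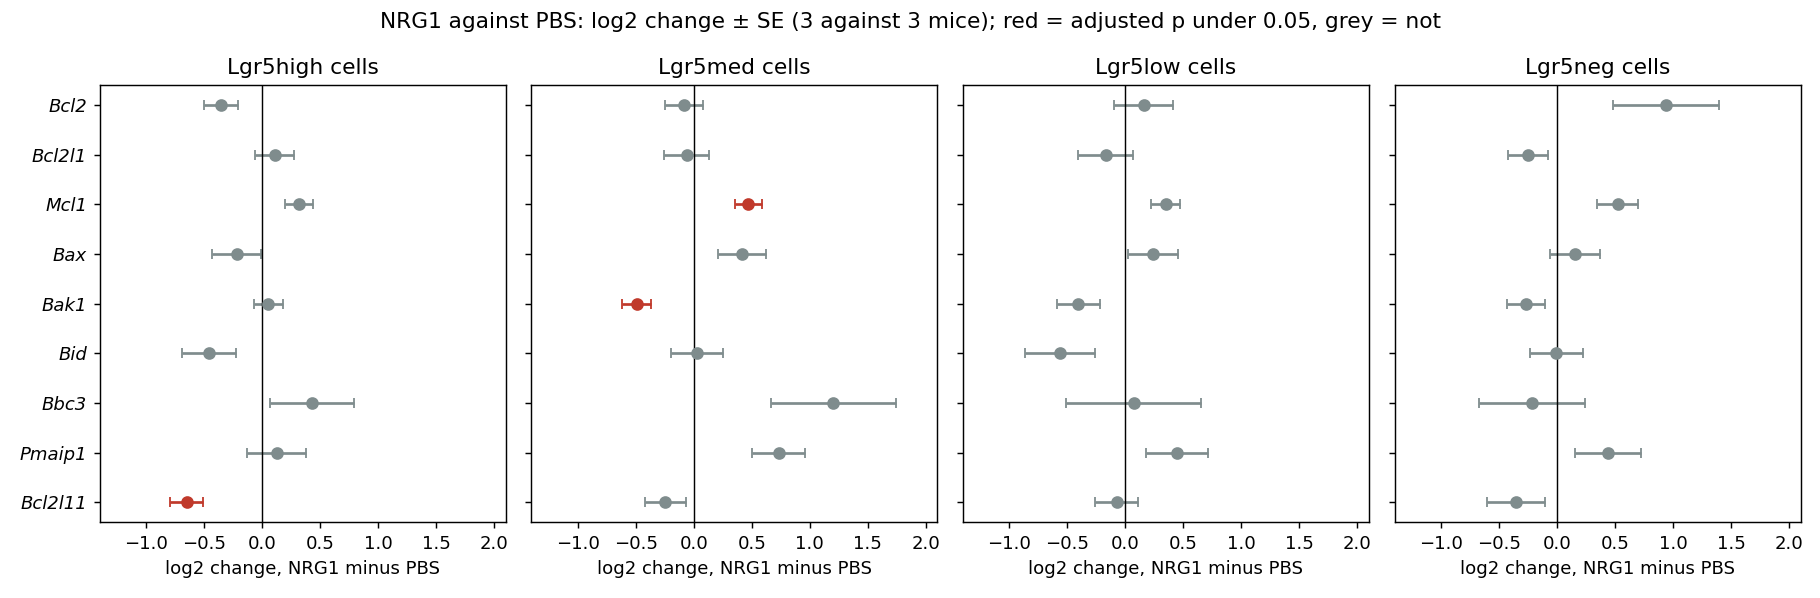
Log2 change ± SE of 9 members with NRG1 against PBS in each population (3 against 3 mice), red where the adjusted p is under 0.05. Mcl1 lies right of 0 in all 4 panels (0.32 to 0.52), and 3 changes are red: Bcl2l11 in Lgr5high, and Mcl1 and Bak1 in Lgr5med.

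The log2 change of Mcl1 with NRG1 was positive in all 4 populations. It was 0.32 in Lgr5high, 0.47 in Lgr5med, 0.35 in Lgr5low (SE 0.12, adjusted p = 0.243) and 0.52 in Lgr5neg cells (SE 0.17, adjusted p = 0.276). In Lgr5low and Lgr5neg cells every NRG1 library was above every PBS library. The value in Lgr5neg cells passed with the replicate number as a block (0.51, adjusted p = 0.00256) and with all 24 libraries in 1 model (0.52, adjusted p = 0.0376). With the 4 populations of each mouse averaged before the test, so that the mouse is the replicate, Mcl1 stood at 7.07, 7.19 and 7.18 log2 CPM in NRG1 mice, against 6.70, 6.72 and 6.84 log2 CPM in PBS mice. It rose by 0.40 (SE 0.09, limma adjusted p = 0.0124), a 1.32-fold change, and was the only 1 of 9 members called there, where 9.34% of genes were. That call ended without NRG1 replicate 2 (0.0706) or PBS replicates 1 (0.0507) or 2 (0.0596). Bcl2l11 (-0.31, SE 0.10, adjusted p = 0.0768), Pmaip1 (0.40, SE 0.14, adjusted p = 0.0844) and Bak1 (-0.28, SE 0.11, adjusted p = 0.131) did not pass. The mouse means of Bcl2l11 and Pmaip1 did not overlap between treatments, and those of Bak1 did.

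In the Lgr5neg population Bcl2 had the largest log2 change of the members, 0.94 (SE 0.46, adjusted p = 0.503), and it rests on the library rich in immune RNA: without NRG1 replicate 2 it was 0.19 (adjusted p = 0.947). Whether the response to NRG1 differed between populations was tested over all 24 libraries. No member was called for Lgr5high minus Lgr5med or Lgr5high minus Lgr5low (background 0% of genes in either), for Lgr5high minus Lgr5neg (background 0.0532%), or for any difference among the 4 populations (background 0.0266%). DESeq2 called no member in these either. At an unadjusted p under 0.05 stood the differences in response of Bak1 (0.55) and Bax (-0.63) in the first, Bcl2 (-1.31, SE 0.50, adjusted p = 0.444) in the third, and none in the others. That value of Bcl2 was -0.64 without NRG1 replicate 2, and it passed when no filter on low counts was used (-1.33, adjusted p = 0.00242).

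The other genes of the pathway were followed in 5 lists. Of 17 further BCL2 family genes, 10 or 11 were abundant enough to test against NRG1. None was called by edgeR in Lgr5high, Lgr5low or Lgr5neg cells, where 1, 1 and 2 had an unadjusted p under 0.05 and DESeq2 called none, and 3 were called in Lgr5med cells. Bcl2l14 rose to 19.0 ± 1.08 CPM in NRG1 mice, against 11.5 ± 1.64 CPM in PBS mice (log2 change 0.74, adjusted p = 0.0108). Bnip3l, whose product NIX marks mitochondria for removal, rose to 36.3 ± 3.40 CPM, against 23.7 ± 1.37 CPM (0.63, adjusted p = 0.00849). Bad, a BH3-only gene whose product survival kinases silence by phosphorylation, fell to 9.98 ± 1.17 CPM in NRG1 mice, against 16.6 ± 0.95 CPM in PBS mice (-0.71, adjusted p = 0.0135). The median log2 change of the list there was 0.06, against 0.01 over all genes. The call of Bcl2l14 ended without PBS replicate 2 (0.0604) or 3 (0.0708), that of Bnip3l without NRG1 replicate 2 (0.0513) or PBS replicate 3 (0.0597), and that of Bad without NRG1 replicate 2 (0.0716) or PBS replicate 2 (0.0733). In the 15-week-old mice alone Bcl2l14 (0.0784) and Bad (0.0525) lost the call. The 3 near-identical copies of Bcl2a1 had 0 or 1 count each over all 24 libraries, and Bcl2l10, Moap1 and Hrk had 3, 7 and 16.

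Across the populations the same list ran mostly the way of Bcl2l1 and Mcl1. In Lgr5high against Lgr5neg cells 8 of 11 were lower and none higher in NRG1 mice, and 6 were lower and 1 higher in PBS mice, with medians of -0.56 and -0.51 against 0.08 and 0.09 over all genes, of which 65.5% and 67.4% were called (32.0% lower in either). In PBS mice Bcl2l15, a gene known for its expression in gut epithelium, had 2.16 ± 0.94 CPM in Lgr5high cells and 103 ± 8.80 CPM in Lgr5neg cells, a 49.6-fold difference (log2 difference -5.63, adjusted p = 1.63e-12). Bad stood at 8.95 ± 1.25 CPM in Lgr5high and at 35.5 ± 6.73 CPM in Lgr5neg cells (-2.06, adjusted p = 2.68e-09), and Bok, an effector relative of BAX, at 7.93 ± 1.19 CPM in Lgr5high and 14.1 ± 5.97 CPM in Lgr5neg cells (-0.91, adjusted p = 0.00548). The call of Bok ended without Lgr5neg replicate 1 (-0.62, 0.065) and in the 15-week-old mice alone (0.0595).

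Of 22 genes of the apoptosome, the caspases and their inhibitors, 1 rose with NRG1 in Lgr5high and 1 in Lgr5med cells, the same gene, and none was called in Lgr5low or Lgr5neg cells, where 1 and 6 had an unadjusted p under 0.05 and DESeq2 called none. Casp6, an executioner caspase, stood at 21.6 ± 1.64 CPM in NRG1 mice and 12.2 ± 2.13 CPM in PBS mice in Lgr5high cells (log2 change 0.84, SE 0.15, adjusted p = 0.00333). In Lgr5med cells it stood at 21.1 ± 1.95 CPM in NRG1 mice and 13.9 ± 1.93 CPM in PBS mice (0.63, SE 0.15, adjusted p = 0.0206). The first call held in all 13 alternatives, and the second ended without NRG1 replicate 2 (0.0923) or PBS replicates 1 (0.0673) or 3 (0.0892) and in the 15-week-old mice alone (0.0598). The medians of the list were -0.02 in Lgr5high and 0.06 in Lgr5med cells, against 0.01 in both over all genes. Between Lgr5high and Lgr5neg, 13 of 22 were lower and 4 higher in NRG1 mice, and 11 lower and 4 higher in PBS mice, where 65.5% and 67.4% of all genes were called, so the totals are near the background. Birc5, which encodes survivin and is made in dividing cells, had 45.2 ± 7.74 CPM in the Lgr5high cells of PBS mice and 3.24 ± 0.97 CPM in their Lgr5neg cells (3.72, adjusted p = 3.18e-11), and Parp1, a DNA repair enzyme that executioner caspases cut, 100.7 ± 6.75 CPM in Lgr5high cells and 9.75 ± 1.65 CPM in Lgr5neg cells (3.29, adjusted p = 7.52e-13).

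Of 15 death receptor genes, 13 or 14 were tested and none was called with NRG1 in any population by edgeR. At an unadjusted p under 0.05 there were 4 in Lgr5high, 2 in Lgr5med, 0 in Lgr5low and 0 in Lgr5neg cells, and DESeq2 called none in any of them. Between Lgr5high and Lgr5neg, 7 of 14 were lower and 3 higher in NRG1 mice, and 7 lower and 2 higher in PBS mice, again near the background of 65.5% and 67.4% in total. Fas, the receptor of the Fas ligand, had 0.47 ± 0.09 CPM in the Lgr5high cells of PBS mice and 15.1 ± 3.62 CPM in their Lgr5neg cells (log2 difference -5.05, adjusted p = 2.05e-10). Tnfrsf1a, a TNF receptor, had 14.5 ± 1.33 CPM in Lgr5high cells and 53.4 ± 12.7 CPM in Lgr5neg cells (-1.96, adjusted p = 3.01e-09), while Tnfrsf1b, the other TNF receptor, had 8.47 ± 1.88 CPM in Lgr5high cells and 1.74 ± 0.67 CPM in Lgr5neg cells (2.20, adjusted p = 1.7e-06).

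Of p53 and its targets outside the 10 members, 2 of 22 changed with NRG1 in Lgr5high cells (1 up, 1 down), 4 of 22 in Lgr5med cells (3 up, 1 down) and none in Lgr5low or Lgr5neg cells by edgeR, with medians of 0.14 in Lgr5high and 0.14 in Lgr5med cells against 0.01 in both over all genes. In Lgr5low and Lgr5neg cells 7 and 3 had an unadjusted p under 0.05, and DESeq2 called 4 and 1. Trp53inp1, a p53-induced stress protein, stood at 25.5 ± 3.32 CPM in NRG1 mice and 7.99 ± 1.25 CPM in PBS mice in Lgr5med cells (log2 change 1.70, SE 0.17, adjusted p = 7.05e-05) and held in all 13 alternatives. Btg2, an antiproliferative gene, rose by 0.75 in Lgr5med (adjusted p = 0.00357) and by 0.77 in Lgr5high cells (adjusted p = 0.0304). Both calls ended with all 24 libraries in 1 model (0.05098 in Lgr5med and 0.0641 in Lgr5high), and that in Lgr5high cells also without NRG1 replicate 1 (0.104) or 2 (0.0683) or PBS replicate 1 (0.0654) or 2 (0.0982). Pidd1, which encodes the scaffold that activates caspase-2, fell by 0.71 on the log2 scale in Lgr5high cells (adjusted p = 0.022), and the call ended without NRG1 replicate 1 (0.0929) or 2 (0.0643) or PBS replicate 3 (0.0674), in the 15-week-old mice alone (0.0634) and with all 24 libraries in 1 model (0.0988). Perp, a p53 target of cell junctions, fell to 69.6 ± 3.33 CPM in NRG1 mice, against 108.7 ± 6.82 CPM in PBS mice, in Lgr5med cells (-0.62, adjusted p = 0.00456). It was named beyond the rule to complete the 4. Eda2r, a TNF receptor family member, rose by 0.94 in Lgr5med cells (adjusted p = 0.0362) and lost the call without each of the 6 libraries in turn, with adjusted p of up to 0.194 over its 13 alternatives. Between Lgr5high and Lgr5neg, 11 of 22 were higher and 7 lower in NRG1 mice, and 10 higher and 7 lower in PBS mice, beside a background of 65.5% called (33.5% higher) in NRG1 mice and 67.4% (35.4% higher) in PBS mice. Cdkn1a, the gene of the cell cycle brake p21, had 12.7 ± 1.67 CPM in the Lgr5high cells of PBS mice and 371 ± 68.1 CPM in their Lgr5neg cells (log2 difference -4.94, adjusted p = 9.42e-10), and Siva1, a proapoptotic p53 target, had 9.26 ± 2.21 CPM in Lgr5high cells and 0.41 ± 0.52 CPM in Lgr5neg cells (4.399, adjusted p = 1.55e-07).

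Of 22 upstream regulators of the family, 20 were tested in Lgr5high and Lgr5med cells, 2 fell with NRG1 in either and none rose. None was called by edgeR in Lgr5low or Lgr5neg cells, where 4 and 2 had an unadjusted p under 0.05 and DESeq2 called 1 and 0. E2f1, a cell cycle transcription factor known to activate several BH3-only genes, stood at 4.601 ± 1.31 CPM in NRG1 mice and 16.4 ± 3.28 CPM in PBS mice in Lgr5high cells (log2 change -1.82, SE 0.21, adjusted p = 0.000229). In Lgr5med cells it stood at 4.58 ± 0.15 CPM in NRG1 mice and 18.7 ± 5.11 CPM in PBS mice (-2.01, SE 0.21, adjusted p = 9.68e-05), and both calls held in all 13 alternatives. Myc, a growth-promoting transcription factor, fell in Lgr5high cells to 149 ± 6.45 CPM in NRG1 mice, against 220.4 ± 20.4 CPM in PBS mice (-0.55, adjusted p = 0.0085). Stat3, the transcription factor of cytokine signalling, fell in Lgr5med cells to 26.0 ± 5.77 CPM in NRG1 mice, against 44.6 ± 2.99 CPM in PBS mice (-0.76, adjusted p = 0.00863). The medians of this list were 0.04 and 0.03 in Lgr5high and Lgr5med cells, against 0.01 in both over all genes. No FOXO gene of this list was called with NRG1. The call of Myc ended with all 24 libraries in 1 model (0.124), and that of Stat3 in the 15-week-old mice alone (0.0595). Between Lgr5high and Lgr5neg, 5 of 20 were higher and 6 lower in NRG1 mice as in PBS mice, beside the background of 65.5% and 67.4% called. In PBS mice Myc had 220.4 ± 20.4 CPM in Lgr5high cells and 5.51 ± 1.76 CPM in Lgr5neg cells (log2 difference 5.25, adjusted p = 3.86e-12), and Stat3 had 25.5 ± 5.45 CPM in Lgr5high cells and 130.9 ± 4.301 CPM in Lgr5neg cells (-2.44, adjusted p = 2.28e-11).

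The genes most alike to each member were sought among 8825 genes by the Pearson correlation of log2 CPM over the 24 libraries, which share mice and a strong contrast between Lgr5neg and the rest, so the values describe and are not tested. Bcl2 was closest to Hnrnpr (0.94), Tmem9 (0.94) and Lrig1 (0.94), the last a stem cell regulator that restrains ErbB receptors. Bak1 was closest to Scamp2 (0.98), Elovl1 (0.98) and Smim24 (0.97), Mcl1 to Sult1d1 (0.96), Cript (0.96) and Dsc2 (0.96), and Pmaip1 to Pdcl3 (0.97), Chd3 (0.95) and Sucla2 (0.95). Bcl2l1 was closest to Tstd1 (0.97), Epb4.1l4b (0.96) and Faah (0.96), and Bid to Decr1 (0.95), Mgst1 (0.95) and Pgrmc1 (0.95). The likeness was looser for Bbc3 (Tprkb 0.85, Pik3c2a 0.83, Apool 0.81), for Bcl2l11 (Pdxk 0.80, Oat 0.80, Tnfsf10 0.77) and for Bax (Tomm7 0.71, Atp6v1f 0.66, Psmb4 0.64). Among the members, Mcl1 and Pmaip1 went together most closely (0.89), as did Bcl2l1 and Bid (0.88), and Bcl2 and Bak1 were the most opposed pair (-0.89).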

How the data were processed

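RNA of 24 sorted populations from 6 mice was analysed as deposited, in a table of whole-number read counts per gene symbol that the authors had not normalized. The submitters' processing notes name STAR, featureCounts and GRCm38. Versions, annotation release and strand setting are not given in the sources used here. Per the labels' protocols, the kit was NuGEN Ovation and reads were single-ended. Library totals ran from 11176264 to 23343499 counts.

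From the counts, edgeR 4.0.16 (R 4.3.3) was used with TMM factors, filterByExpr (minimum count 10, minimum total 15), a robust quasi-likelihood fit and Benjamini-Hochberg adjustment over all genes tested, with calls made below 0.05. The edgeR test is meant wherever an adjusted p is printed with no other tool named. Each population had its own fit of 6 libraries for NRG1 against PBS. Populations were compared within a treatment in a fit of its 12 libraries, and differences in response were tested over all 24. Mouse means of log2 CPM (prior count 2) were tested with limma 3.58.1. Printed CPM use TMM factors over all 24 libraries, so they can differ slightly from the fitted folds. The scripts were tested on simulated data.

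All 10 members are named in the comparisons. From each list up to 3 called genes per comparison with the largest log2 change and an average log2 CPM of at least 1 are eligible for naming, and those of the NRG1 comparisons and of Lgr5high against Lgr5neg in PBS mice are given, except 1 gene that is not reported here. The members and the lists were chosen with earlier results of these data known. The p-values rest on 3 mice per group.

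Within a treatment the 4 populations of a replicate number come from the same mouse, as the sample labels show, so the mouse is the pairing there (median correlation of their deviations from the group means 0.107, 36 pairs). Between treatments, same-numbered mice correlated at 0.131 to 0.173 in Lgr5low and 0.103 to 0.181 in Lgr5neg, with every pair over 0.1. The values were 0.0689 to 0.227 in Lgr5high and 0.0698 to 0.206 in Lgr5med. Different-numbered mice had a median of -0.0743 over the populations (24 pairs). Their highest value was 0.0700 in Lgr5high and 0.0497 in Lgr5med. Alternatives were RLE size factors, DESeq2 1.42.0, no filter on low counts, leaving out the mitochondrial ribosomal RNAs, the replicate block, leaving out each library, the 15-week-old mice alone, and all 24 libraries in 1 model. For the mouse means, another prior count (0.5) and leaving out Lgr5neg were tried. Promoter windows come from RefSeq (GRCm38.p6) and coordinates from GENCODE (GRCm38).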

Additional observations from a re-analysis of the deposited data

How the results depend on the processing

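Over 1825 values of the members under the alternatives, 1780 kept their side of the threshold, 24 gained a call and 21 lost one. The sign changed in 52 of the 1780, all values not called in either fit, and no called value reversed. The cause of the differences below was not tested, beyond the smaller number of mice in the 15-week-old subset and in the fits that leave out a library.

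With the replicate number as a block, which was not shown to pair the mice in Lgr5high and Lgr5med, 2333 genes were called for NRG1 in Lgr5med, where Pmaip1 passed (0.0332). The block gave 573 in Lgr5low, 839 genes and 1 member in Lgr5neg, and 2405 genes and 2 members (Mcl1 and Bcl2l11, 0.0342) in the mouse means. Between populations the mouse block called 2 members for Lgr5high against Lgr5med and 2 for Lgr5med against Lgr5low in PBS mice. In NRG1 mice it called 913 genes for the first and 1266 genes and 1 member for the second. For the differences in response it called 1 gene (Lgr5low), 65 (Lgr5neg) and 19 (any population). Beyond these and the values with Mcl1 in Lgr5neg and Bcl2 between Lgr5low and Lgr5neg in NRG1 mice, it changed no call of a member.

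Without a filter on low counts, NRG1 called 497 genes in Lgr5low and 272 in Lgr5neg, 3 members passed for Lgr5high against Lgr5med (Bcl2, Bak1, Bcl2l11) and 1 for Lgr5med against Lgr5low (Bcl2) in PBS mice, and 1059 and 1268 genes were called in those 2 comparisons in NRG1 mice. The differences in response then held 17, 35, 150 and 227 genes, with 1 member (Bcl2) in each of the last 2. DESeq2 called 293 genes in Lgr5low, 187 in Lgr5neg, 785 and 1106 along the Lgr5-positive populations of NRG1 mice, 2 members for Lgr5med against Lgr5low in PBS mice, and 50 and 40 genes for the last 2 differences in response. With all 24 libraries in 1 model, NRG1 called 480 genes and 0 members in Lgr5high, 1 member in Lgr5med, 129 genes in Lgr5low, and 306 genes and 1 member in Lgr5neg. In the 15-week-old mice alone, NRG1 called 2 members in Lgr5high, 425 genes and 1 member in Lgr5med, 11 genes in Lgr5low and 0 in Lgr5neg. There, Lgr5high against Lgr5med had 68 genes in NRG1 mice and 99 genes and 0 members in PBS mice, and Lgr5med against Lgr5low had 91 in NRG1 mice and 307 in PBS mice.

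Leaving out 1 library or mouse gave 491 to 1186 genes for NRG1 in Lgr5high (976 with all), 422 to 1118 in Lgr5med (1279) with 0 to 2 members, 1 to 72 in Lgr5low (59) and 0 to 90 in Lgr5neg (39). It gave 126 to 487 and 204 to 738 genes along the Lgr5-positive populations of NRG1 mice, and 634 to 1425 with 1 to 2 members and 464 to 1004 in PBS mice (1302 and 1078). It gave 1 to 14 and 0 to 4 genes for the last 2 differences in response (8 and 4), and 537 to 1731 genes with 0 to 1 members for the mouse means (1405). Of the lists, 157 of 1015 counts moved by over 1.5 times, and of 1336 values of called list genes 143 lost the call and 0 changed sign. Depth limits Bik and Bbc3 most.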
